A study of Mus musculus with 16 samples.

Results

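The genes described here encode enzymes that break down stored triglyceride in the fat cell and proteins that sit on its lipid droplets. They are Pnpla2, Lipe, Mgll, Abhd5, G0s2, Plin1, Plin2, Plin4, Plin5 and Cidec. These 10 genes were chosen by name out of the 22911 genes with a symbol on the array, and each is represented by its brightest probe. RNA came from brown adipose tissue (BAT) and gonadal white adipose tissue (gWAT) of male mice of the strain C57BL/6NCrSlc, and each of the 4 groups of tissue and genotype had 4 arrays (16 together). In Adipo-Pgam1 KO mice, Cre driven by the adiponectin promoter removes floxed Pgam1, which encodes an enzyme of glycolysis. The removal takes place in the cells of brown and white fat in which that promoter is active. The littermate controls are labelled wild-type, and the study's methods give them as Cre-negative mice with floxed alleles, so both genotypes carried the floxed gene. Mice were 16 weeks old, except for replicate 4 of the KO groups in both tissues, which was 14 weeks old. The labels do not say whether the arrays of a group came from separate mice, so the p-values measure the spread between these arrays. Whole tissue was hybridized, so fewer cells of a type and less RNA per cell cannot be told apart.

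Triglyceride in a lipid droplet is hydrolyzed in steps: the lipase encoded by Pnpla2 takes off the first fatty acid, that of Lipe mainly the next, and that of Mgll the last. The first step is switched on by the coactivator Abhd5 and held back by the inhibitor G0s2, while perilipins coat the droplet and decide which enzymes reach it. Brown fat keeps many small droplets that feed heat production, whereas a white adipocyte holds a single large one, which the product of Cidec helps to form by droplet fusion.

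Promoter sequence is shown for 3 genes that represent the patterns described below, Plin2 (higher in both tissues), Plin5 (lower in BAT and higher in gWAT) and Cidec (the largest fall in BAT among those whose groups were fully apart). The stretches come from RefSeq for the build GRCm38.p6, run 5′ to 3′ on the strand of the gene, and end where the annotated gene begins or at its start site. Capitals mark AGGTCA or its reverse complement TGACCT, a hexamer bound by nuclear receptors such as the PPAR family.
Plin2, chr4:86670218-86670309, minus strand: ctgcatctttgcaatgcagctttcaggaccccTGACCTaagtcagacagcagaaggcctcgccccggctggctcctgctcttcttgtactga
Plin5, chr17:56117607-56117798, minus strand: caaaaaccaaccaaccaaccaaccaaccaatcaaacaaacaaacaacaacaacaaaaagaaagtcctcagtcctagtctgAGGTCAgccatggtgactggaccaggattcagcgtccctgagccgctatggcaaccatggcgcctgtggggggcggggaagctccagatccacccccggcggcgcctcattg
Cidec, chr6:113435761-113436010, minus strand: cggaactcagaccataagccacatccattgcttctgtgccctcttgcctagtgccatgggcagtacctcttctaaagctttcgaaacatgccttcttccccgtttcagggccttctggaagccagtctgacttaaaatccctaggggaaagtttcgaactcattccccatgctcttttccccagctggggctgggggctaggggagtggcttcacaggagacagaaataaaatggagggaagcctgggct
All 10 genes matched the RefSeq promoter table, with 14 listed start sites. Within the 250 bases before a start site and on either strand, the hexamer was found for Plin2, Plin5 and Abhd5, and in 14.0% of all 32851 such windows. The full PPAR direct repeat, which is this hexamer, any base and the hexamer again, was found for 0 of the 10 genes and in 0.0335% of all windows. These letters alone do not show whether a factor binds there.

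The arrays were comparable in quality but not in scale. Their 75th percentile, by which signals were scaled, lay between 401 and 451 in BAT controls and between 650 and 916 in BAT of KO mice, a mean difference of 0.94 on the log2 scale, and in gWAT the mean difference was 0.10. Pgam1 itself fell by 1.74 in BAT (limma, adjusted p = 1.11e-05), but was higher by 0.95 in gWAT of the group labelled KO (adjusted p = 0.0139), so gWAT directions rest on that label. In BAT, 3 control arrays lay on slide 1, and the remaining control shared slide 2 with all 4 KO arrays. In gWAT, 3 control arrays lay on slide 2, and the remaining control shared slide 3 with all 4 arrays labelled KO.

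In BAT, 9 of the 10 genes were lower in KO mice than in controls and Plin2 was higher. All 10 passed an adjusted p of 0.05 in limma, in a comparison in which 61.5% of the 14280 genes tested passed, 34.0% lower and 27.5% higher. The median log2 change of the 10 genes was -1.17, beside -0.08 over all genes tested. The groups did not overlap for 9 genes, as for 57.1% of all genes tested (32.0% lower, 25.2% higher), and G0s2 was the exception. Log2 values are those of the signal relative to the 75th percentile of the array.

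On the 75th percentile scale, the lipases were all lower. Before scaling, their mean log2 signals differed by -0.10 for Pnpla2, -0.29 for Lipe and -0.73 for Mgll. Pnpla2 (A_55_P1961039; chr7:141455188-141460743, GRCm38.p6) stood at 8.22, 8.45, 8.42 and 8.67 on the BAT control arrays and at 7.36, 7.28, 7.25 and 7.71 on the KO arrays. Its log2 change was -1.04 (standard error 0.14, adjusted p = 0.000276). Lipe (A_51_P435363; chr7:25379527-25398486), the hormone-sensitive lipase, stood at 4.18, 4.03, 4.14 and 3.95 in controls and at 3.44, 2.63, 2.32 and 2.96 in KO mice. The KO arrays were lower and more scattered than the controls, and Lipe changed by -1.24 (standard error 0.22, adjusted p = 0.00120). Mgll (A_55_P2063316; chr6:88724412-88828360), the monoacylglycerol lipase, stood at 7.68, 7.74, 7.54 and 7.04 in controls and at 5.87, 5.75, 5.53 and 6.14 in KO mice. It had the largest change of the lipases, -1.68 (standard error 0.19, adjusted p = 0.000100), a 3.20-fold lower signal.

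Both regulators of Pnpla2 were lower as well, but with very different spread. Abhd5 (A_55_P2177233; chr9:122351616-122381524) stood at 4.02, 3.87, 3.77 and 3.98 in BAT controls and at 2.73, 2.78, 2.72 and 3.23 in KO mice. Its change of -1.04 (standard error 0.14, adjusted p = 0.000222) was close to that of Pnpla2. G0s2 (A_52_P681391; chr1:193272160-193273188) stood at 4.52, 6.44, 6.33 and 6.34 in controls and at 1.98, 3.99, 5.03 and 3.10 in KO mice. Control replicate 1 lay below KO replicate 3, so the groups overlapped, and the change of -2.38 carried a standard error of 0.67 (adjusted p = 0.0134; two-sided exact permutation test, p = 0.0571). With the slide as a fixed block, G0s2 changed by -2.81 and no longer passed (adjusted p = 0.0714).

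Among the perilipins, Plin1, Plin4 and Plin5 fell and Plin2 rose. Plin1 (A_51_P244497; chr7:79721164-79732904), the main perilipin of white fat, stood at 7.25, 7.08, 7.15 and 6.86 in BAT controls and at 6.33, 5.93, 5.66 and 6.20 in KO mice (change -1.06, standard error 0.16, adjusted p = 0.000536). Plin4 (A_51_P495780; chr17:56100587-56109948), which coats small new droplets, stood at 7.37, 7.35, 7.16 and 7.42 in controls and at 6.22, 6.17, 6.07 and 6.40 in KO mice (change -1.11, standard error 0.11, adjusted p = 5.14e-05). Plin5 (A_55_P2104259; chr17:56111597-56117606), found in oxidative tissues and known for tying droplets to mitochondria, stood at 7.31, 7.31, 7.34 and 7.68 in controls and at 5.91, 5.89, 6.40 and 6.17 in KO mice (change -1.32, standard error 0.15, adjusted p = 0.000102). For each of these genes, the highest KO array lay below the lowest control array. Plin2 (A_55_P1999648; chr4:86626910-86670217), a perilipin of many cell types including lipid-laden macrophages, stood at 7.85, 7.41, 7.57 and 7.08 in controls and at 7.94, 8.10, 8.10 and 8.34 in KO mice. The lowest KO array lay just above the highest control array, and the change was 0.64 (standard error 0.17, adjusted p = 0.00964). The second probe of Plin2, A_66_P132059, gave 0.43 (limma, adjusted p = 0.0480). Its groups overlapped, with controls up to 4.15 and KO arrays from 4.08.

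Cidec (A_51_P490456; chr6:113424634-113435760) had the largest mean fall in BAT, with G0s2 next to it. It stood at 9.65, 9.83, 9.61 and 9.59 in controls and at 7.14, 7.16, 7.19 and 7.60 in KO mice. The change of -2.40 (standard error 0.13, adjusted p = 5.46e-06) corresponds to a 5.27-fold lower signal, and the highest KO array lay far below the lowest control array. For the 9 genes whose groups were apart, the exact permutation test gave p = 0.0286, and no smaller p is possible with groups of 4. On slide 2 alone, which allows no test with its single control, that control lay outside the range of the 4 KO arrays for all 10 genes, as for 80.3% of all genes tested. Leaving out KO replicates 1 and 3, an alternative chosen after seeing the data, left 9 genes lower and Plin2 higher past the threshold.

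**Figure D1:**
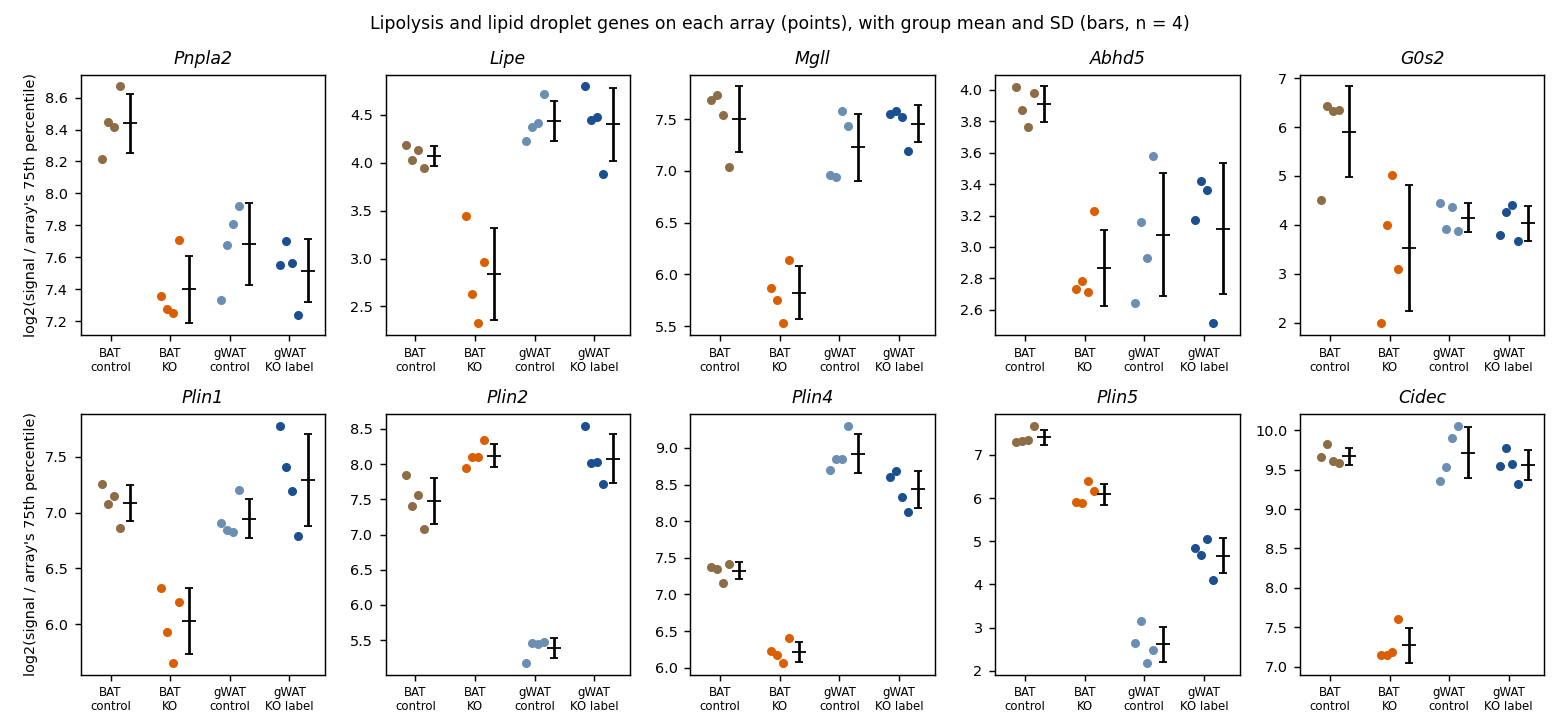
Log2 of the signal of each gene relative to the 75th percentile of the array (y axis, own range in each panel) on the 4 arrays of each group (points), with the group mean and SD beside them. In BAT the KO points of Cidec lie between 7.14 and 7.60, far below its controls at 9.59 to 9.83, whereas in gWAT the clear separations are those of Plin2 and Plin5.

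How much of the fall in BAT was seen depended on the scaling. Before any scaling, the mean log2 signal of Pnpla2 differed between BAT of KO mice and controls by only -0.10, that of Abhd5 by -0.10, that of Plin1 by -0.11 and that of Plin4 by -0.17. The signal of Pnpla2 stayed between 125608 and 183813 intensity units on all 16 arrays, and its scaled value correlated with the log2 of the 75th percentile with r = -0.97 over 16 arrays, which share that percentile by construction. Cidec, G0s2 and Mgll were lower also without scaling, by -1.45, -1.44 and -0.73, and Plin5 and Lipe differed by -0.38 and -0.29. Under spike-in scaling, which raised the median change of all genes tested from -0.08 to 0.46, the falls were smaller, -0.50 for Pnpla2 (adjusted p = 0.0108) and -1.85 for Cidec, and 9 genes lower and 1 higher still passed. Scaling by Actb and Rplp0 moved that median to -0.67 and the change of Plin2 to 0.05, which no longer passed (adjusted p = 0.775), while the other 9 genes remained lower. Actb and Rplp0 themselves were higher in KO mice by 0.40 and 0.78 on the 75th percentile scale.

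**Figure D2:**
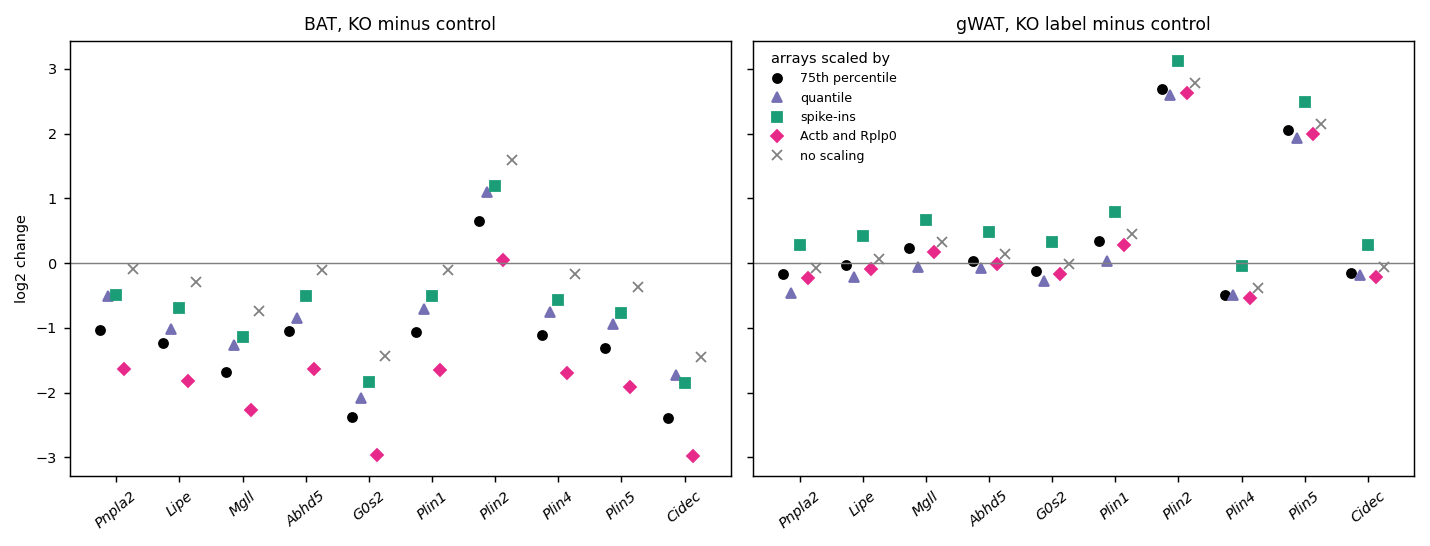
Log2 change of each gene (y axis) in BAT (left) and gWAT (right) with the arrays scaled in 4 ways and not scaled (markers). In BAT, the 9 lowered genes lie below 0 with every marker, from -1.45 for Cidec to -0.10 for Pnpla2 without scaling. Plin2 ranges from 0.05 with Actb and Rplp0 to 1.59 without scaling.

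The difference between 2 genes on the same array is free of any scaling that multiplies the whole array, and was therefore set out relative to the control mean of each tissue. Relative to Plin1, Plin2 was higher in BAT of KO mice by 1.22, 1.78, 2.05 and 1.75, against -0.17 to 0.21 in controls. Cidec was lower relative to Plin1 by -1.77, -1.36, -1.05 and -1.18, against -0.19 to 0.16 in controls. By contrast, Plin4 relative to Plin1 differed by -0.05 ± 0.21 (SD, n = 4) and Plin5 by -0.26 ± 0.49 (SD, n = 4), both overlapping with controls. Relative to Pnpla2, Abhd5 differed by -0.01 ± 0.06 (SD, n = 4), Lipe by -0.20 ± 0.44 (SD, n = 4) and Mgll by -0.64 ± 0.10 (SD, n = 4), each overlapping with controls. G0s2 relative to Pnpla2 took values of -2.84, -0.76, 0.31 and -2.08, against -1.17 to 0.52 in controls, so no shift between lipase and inhibitor could be told from the spread. Relative to Adipoq, the adiponectin gene expressed in adipocytes, Pnpla2 was higher by 0.97 ± 0.31 (SD, n = 4), Plin1 by 0.95 ± 0.09 (SD, n = 4) and Plin2 by 2.65 ± 0.41 (SD, n = 4), all apart from controls, while Cidec (-0.39 ± 0.37, SD, n = 4) and Plin5 (0.69 ± 0.57, SD, n = 4) overlapped with them.

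Markers of cell types moved with these changes. In BAT, the summed level of 6 adipocyte markers, in units of the 75th percentile of the array, was 628 to 1079 in controls and 198 to 289 in KO mice, and 5 of the 6 fell. Adipoq was 4.01-fold lower, a larger fall than in 7 of the 9 lowered genes. All 6 brown adipocyte markers fell (sums 2417 to 2596 and 893 to 1378), whereas 7 of 8 macrophage markers (16.9 to 30.6 and 85.2 to 137) and all 4 fibroblast and preadipocyte markers (94.0 to 105 and 131 to 182) rose. Skeletal muscle markers summed to 74.4 and 14.0 on KO replicates 1 and 3 and to at most 1.38 on the other BAT arrays. Of 3 muscle markers tested and 3 of T cells, 1 each rose. Of 4 endothelial markers, 0 passed (limma; 0 at an unadjusted p under 0.05), and those of B cells, mesothelium and epididymis were too dim in BAT to be tested. The part of cell composition in the changes was not tested.

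In gWAT, only Plin2 and Plin5 passed the threshold, and both were higher on the arrays carrying the Adipo-Pgam1 KO label. That is 2 of 10, in a comparison in which 17.8% of the 14149 genes tested passed and 9.99% did so upward, so the count lay near that of all genes. Plin2 stood at 5.18, 5.46, 5.45 and 5.47 in gWAT controls and at 8.54, 8.02, 8.03 and 7.72 on the arrays labelled KO. Every array labelled KO exceeded every control by more than 2 on the log2 scale. The change was 2.69 (standard error 0.18, adjusted p = 0.000463), a 6.45-fold higher signal, and it stayed between 2.53 and 2.81 when any array was left out. Plin5 stood at 2.63, 3.16, 2.19 and 2.49 in controls and at 4.83, 4.69, 5.04 and 4.10 on the arrays labelled KO. Its groups were also apart, and Plin5 changed by 2.05 (standard error 0.26, adjusted p = 0.00296), or 4.14-fold. When slide was added as a fixed block, leaving the single control on slide 3 as the reference, Plin2 changed by 2.61 and still passed, and Plin5 changed by 2.18 and did not (adjusted p = 0.0592). On slide 3 alone, that control lay outside the range of the arrays labelled KO for 6 of the 10 genes, as for 56.8% of all genes tested, with Plin2 and Plin5 higher and Pnpla2, Abhd5, Plin4 and Cidec lower on the arrays labelled KO.

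The other 8 genes did not pass in gWAT, and their 95% intervals, which hold for the 75th percentile scaling, are given here. Pnpla2 changed by -0.17 (-0.55 to 0.21), Lipe by -0.03 (-0.49 to 0.43) and Mgll by 0.23 (-0.18 to 0.65). Abhd5 changed by 0.04 (-0.54 to 0.62) and G0s2 by -0.11 (-0.61 to 0.38). Plin1 changed by 0.35 (-0.13 to 0.82) and Cidec by -0.16 (-0.58 to 0.26). Pnpla2 passed as lower under quantile normalization (-0.46, adjusted p = 0.00876). Spike-in scaling moved the median change of all genes tested in gWAT from 0.05 to 0.49. With it Mgll (0.67), Abhd5 (0.48) and Plin1 (0.79) passed as higher, and Pnpla2 (0.27) and Cidec (0.28) lay above the intervals given. Plin4 stood at 8.69, 8.85, 8.85 and 9.30 in controls and at 8.60, 8.68, 8.34 and 8.13 on the arrays labelled KO. These groups did not overlap, as in 24.2% of all genes tested (10.8% lower, 13.4% higher), but the change of -0.49 did not pass (standard error 0.18, adjusted p = 0.0928). It passed under quantile normalization (-0.49, adjusted p = 0.0190) and with Actb and Rplp0 (-0.55, adjusted p = 0.0290). The second probe of Mgll, A_55_P2063312, gave 0.65 in gWAT (adjusted p = 0.0424) where the brightest gave 0.23. The second probes of Plin2 and Plin5 gave 3.23 and 2.13.

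**Figure D3:**
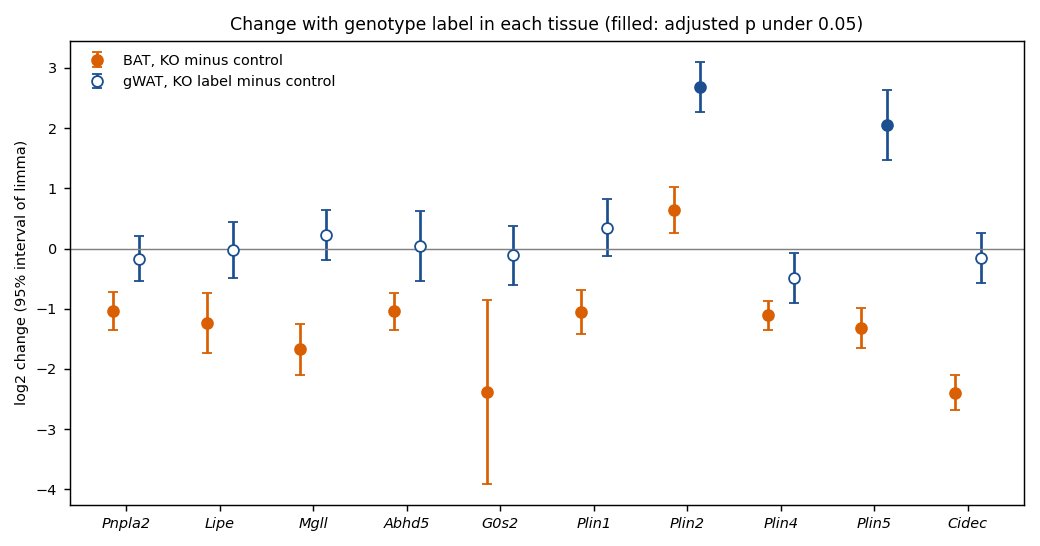
Log2 change of each gene (y axis) in BAT (orange) and gWAT (blue), with the 95% interval of limma as bars and filled points for an adjusted p under 0.05. All 10 BAT points are filled and 9 lie below 0, whereas in gWAT the filled points are Plin2 at 2.69 and Plin5 at 2.05.

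Set against Plin1 on the same array, Plin2 was higher in gWAT by 2.32, 2.17, 2.39 and 2.49, with controls between -0.17 and 0.18. Plin5 was higher by 1.39, 1.61, 2.18 and 1.64, with controls between -0.38 and 0.64, and Plin4 was lower by -0.83 ± 0.23 (SD, n = 4). In each of these 3 pairs the groups were apart. Relative to Adipoq, all 5 genes compared were higher and apart from controls, from 0.72 ± 0.25 (SD, n = 4) for Pnpla2 and 0.73 ± 0.22 (SD, n = 4) for Cidec to 3.58 ± 0.53 (SD, n = 4) for Plin2. Adipoq itself changed by -0.89 in gWAT, and the adipocyte markers Acvr1c, Retn, Lep, Cfd and Slc2a4 by -0.97, -0.95, -0.83, -0.66 and 0.24. For Pnpla2 and Cidec, the sign of such a difference thus depends on the marker chosen. Of the 8 differences with Plin1 or Pnpla2, those of Plin2 with Plin1 were apart in both tissues, that of Cidec with Plin1 in BAT, and those of Plin4 and Plin5 with Plin1 and of Mgll with Pnpla2 in gWAT.

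**Figure D4:**
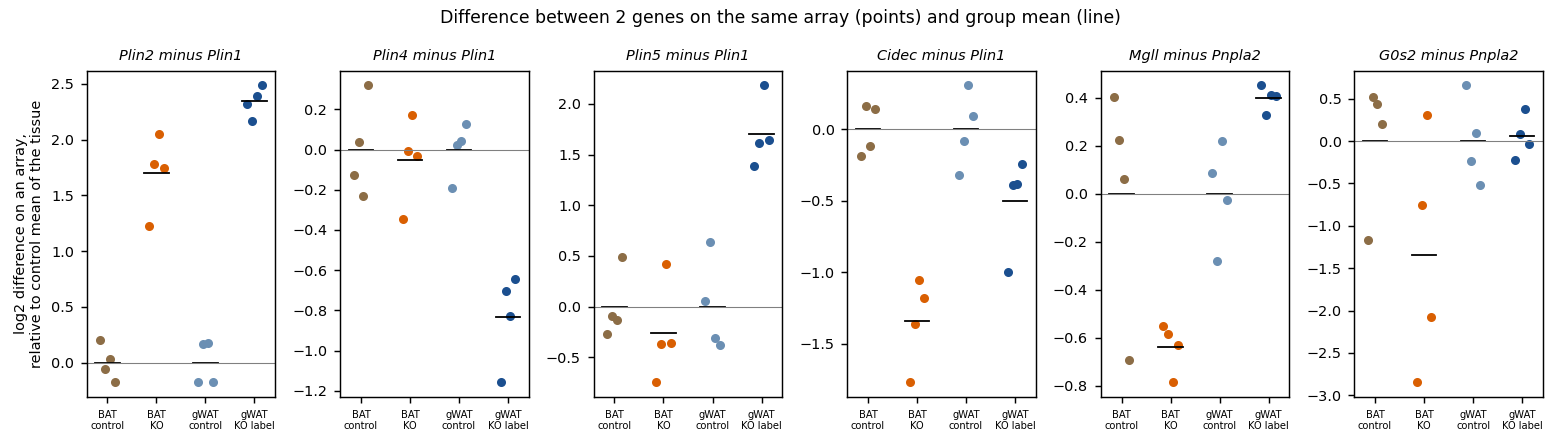
Log2 difference between the 2 named genes on each array (points), relative to the control mean of the tissue (y axis), with group means as lines. Plin2 stands above Plin1 in both tissues on arrays of the KO groups, by 1.22 to 2.05 in BAT and by 2.17 to 2.49 in gWAT, whereas G0s2 minus Pnpla2 overlaps between the groups in both.

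In gWAT too, markers of cell types moved. Brown adipocyte markers summed to 8.11 to 16.0 in controls and to 51.1 to 145 on the arrays labelled KO, and 3 of the 4 that could be tested rose (the list holds Cidea and Ppara, which are described again below). Ucp1, which defines brown fat, cleared the background on 3 of the 4 arrays labelled KO and on 0 of the 4 controls. Adipocyte markers summed to 1456 to 2285 and to 857 to 1370, and 3 of 6 fell, Adipoq among them by 0.89. Macrophage markers summed to 55.2 to 84.9 and to 65.5 to 246, and 3 of 8 rose. The 246 was that of replicate 4, and the other arrays labelled KO stood at 65.5 to 114. Skeletal muscle markers summed to 2.77 to 24.2 and to 29.7 to 57.8, with 0 of 3 tested past the threshold in limma (1 at an unadjusted p under 0.05). Of fibroblast and preadipocyte markers, 1 of 4 fell (289 to 335 and 241 to 335). For endothelium, T cells and mesothelium the counts in limma were 0 of 4, 0 of 3 and 0 of 4 (0, 0 and 0 at an unadjusted p under 0.05), and markers of B cells and epididymis were too dim to be tested. The part of these cells in the rise of Plin2 and Plin5 was not tested.

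The change differed between the tissues for all 10 genes, in the direction of more positive in gWAT (limma, interaction over 16 arrays), where 48.3% of the 14820 genes tested differed 27.4% in that direction and 21.0% in the other. The median difference of the 10 genes was 1.65, beside 0.07 over all genes tested. It was 3.37 for Plin5 (standard error 0.31, adjusted p = 5.20e-06), 2.24 for Cidec (standard error 0.23, adjusted p = 9.20e-06), 2.04 for Plin2 (standard error 0.25, adjusted p = 3.36e-05) and 1.91 for Mgll (standard error 0.27, adjusted p = 8.08e-05). Of these, Plin5 moved in opposite directions in the tissues, Cidec and Mgll passed in BAT and not in gWAT, and Plin2 rose in both. The remaining differences ran from 0.62 for Plin4 (adjusted p = 0.0240) to 2.27 for G0s2 (adjusted p = 0.0234). With the slide as a fixed block, 4 of the 10 differences passed, those of Mgll, Plin2, Plin5 and Cidec. Under quantile normalization 7 passed, beside 48.4% of all genes tested. The differences of Pnpla2 (0.05), Plin4 (0.26, adjusted p = 0.137) and G0s2 (1.81, adjusted p = 0.0674) did not pass.

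The control arrays of both comparisons were also set against each other, so these values share arrays with those above. Of the BAT controls, 3 lay on slide 1, and 1 shared slide 2 with 3 gWAT controls. The remaining gWAT control lay on slide 3, so tissue and slide were largely confounded. Between the tissues of control mice, 7 of the 10 genes differed, as did 64.7% of the 14304 genes tested, so this share was close to that of all genes. Higher in BAT were Plin5 by 4.79 (standard error 0.21, adjusted p = 8.20e-07), Plin2 by 2.09, G0s2 by 1.76, Abhd5 by 0.83 and Pnpla2 by 0.75 (35.4% of all genes tested were higher). Lower in BAT were Plin4 by -1.60 (adjusted p = 3.04e-05) and Lipe by -0.36 (adjusted p = 0.0386; 29.3% of all genes tested were lower). The difference of Plin5 corresponds to a 27.7-fold higher signal, and that of Plin4 to a 3.03-fold lower one. Cidec, with -0.04 (95% interval -0.42 to 0.34), Plin1, with 0.14 (-0.16 to 0.44), and Mgll, with 0.27 (-0.21 to 0.75), did not pass. Under quantile normalization these 3 passed and were lower in BAT, Cidec by -0.98 (adjusted p = 3.56e-05), Plin1 by -0.62 and Mgll by -0.55, and with Actb and Rplp0 Plin1 and Mgll passed as higher, by 0.47 and 0.61. The groups were apart for the same 7 genes, as for 60.8% of all genes tested (33.6% higher, 27.2% lower). Lipe lost its call in 13 of 24 alternatives, and Pnpla2 turned to -0.21 under quantile normalization.

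Ordered by group mean, Plin2 was lowest in gWAT controls (5.39), and the arrays of BAT controls (7.48), gWAT labelled KO (8.08) and BAT of KO mice (8.12) followed. Each of these 3 overlapped with its neighbor in that order. Plin5 ran from gWAT controls (2.62) over gWAT labelled KO (4.67) and BAT of KO mice (6.09) to BAT controls (7.41), with no overlap between any neighbors. The rise of Plin5 in gWAT thus left it below every BAT array. Cidec was lowest in BAT of KO mice (7.27), and its other 3 groups overlapped at 9.55 to 9.71. Pnpla2 was highest in BAT controls (8.44), and its other 3 groups overlapped at 7.40 to 7.69.

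Across all 16 arrays, values of some genes ran closely together, which is a description over arrays that share tissue, genotype and scaling. Mgll and Cidec correlated with r = 0.96, Lipe and Plin1 with r = 0.94, and Pnpla2 and Abhd5 with r = 0.92. After the group means were removed, these were 0.78, 0.91 and 0.78. The scaled values of Pnpla2 and Abhd5 correlated with the log2 of the 75th percentile with r = -0.97 and -0.92. The shared divisor therefore enters their correlation with each other, and that of Pnpla2 with the genes most like it. Plin4 and Plin5, which lie next to each other on chromosome 17, had r = -0.74 over 16 arrays and 0.14 after the group means were removed. Among 13502 genes, the patterns most like that of Pnpla2 were those of Exosc2 (r = 0.98), Milr1 (r = 0.98) and Zfp628 (r = 0.98), and those most like Plin2 were Gipc1 (r = 0.97), Hnrnpab (r = 0.96) and Rfc4 (r = 0.96).

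Of 42 other genes of lipolysis and lipid droplets, 40 were tested in BAT. In KO mice 30 passed as lower and 4 as higher, and the median change of the 40 was -0.98. Of all genes tested in BAT, 61.5% passed, 34.0% lower and 27.5% higher, with a median change of -0.08. Droplet proteins fell in 10 of 13 cases, led by Bscl2, which encodes the droplet-forming protein seipin (-1.47, adjusted p = 2.20e-05), Ldah (-1.30) and Fitm2 (-1.26). Cidea, the brown fat relative of Cidec, changed by -1.23, and Hilpda, an inhibitor of Pnpla2, was the droplet gene that rose (0.97, adjusted p = 0.0192). Of 8 other hydrolases and handlers of their products, 7 fell. The carboxylesterase genes Ces1d and Ces1f fell by 3.18 and 3.07, Pnpla3 by 2.10 and Fabp4, a fatty acid carrier, by 0.98, whereas Lipa, the lysosomal acid lipase, rose by 0.63 (adjusted p = 0.00935). Hormonal control genes fell in 8 of 13 cases, with Adrb3, the beta-3 adrenergic receptor, at -2.19 (adjusted p = 0.000978), Adora1 at -1.65 and Hcar1 at -1.53, and Prkar1a (0.69) and Npr1 (0.53) rose. Of 6 transcription factor genes, 5 fell, most of all Ppara (-2.14), Foxo1 (-1.95) and Cebpa (-1.11), and Pparg changed by -0.55 (adjusted p = 0.0360).

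In gWAT, 7 of these other genes rose and 6 fell of 40 tested, with a median change of -0.06. Of all genes tested there, 17.8% passed, 9.99% higher and 7.85% lower. Under spike-in scaling 35.9% of all genes tested passed, and 95.3% of these were higher. Cidea stood at 2.19, 3.20, 3.05 and 2.95 in gWAT controls and at 6.99, 6.32, 6.21 and 5.51 on the arrays labelled KO. It had the largest change of the list, 3.41 (standard error 0.33, adjusted p = 0.00126), and its level remained below that of every BAT array. The hydrolases split: Lipa (1.45), Ddhd2 (1.20), Pnpla3 (1.05) and Abhd6 (1.04) rose, and Ces1f (-2.60) and Ces1d (-1.13) fell. Adrb3, Hcar1 and Pde3b, which encodes a phosphodiesterase that lowers cAMP, fell by 1.22, 1.04 and 0.74, as they did in BAT, and Prkar1a rose by 0.67 (adjusted p = 0.0263). Tmem159 fell by 0.96 and Aup1 rose by 0.74 among the droplet genes. Of the 6 transcription factor genes, 0 passed in limma (2 at an unadjusted p under 0.05), Pparg and Ppara changing by 0.07 and 0.14. Groups were apart for 0 of these 6, and for 24.2% of all genes tested in gWAT. Fabp4 changed by -0.10 (95% interval -0.46 to 0.25). With spike-in scaling the split in gWAT was 13 higher and 1 lower, and with the slide as a fixed block 2 genes passed.

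**Figure D5:**
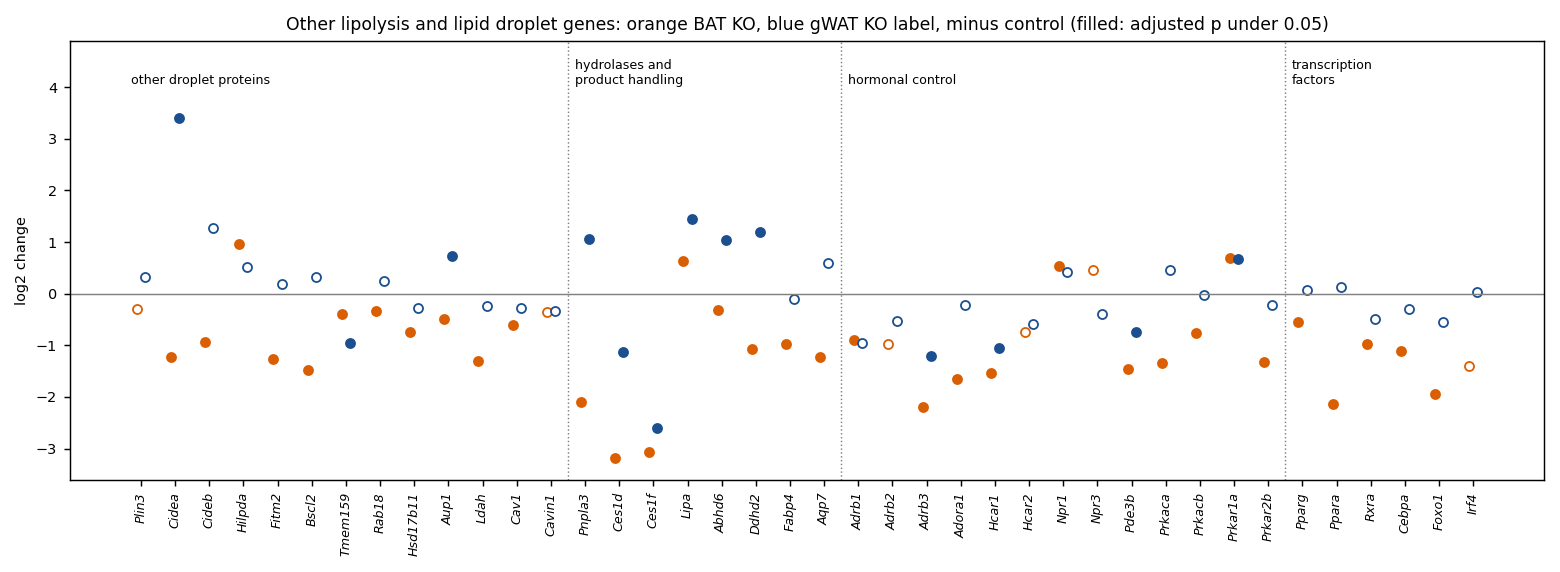
Log2 change (y axis) of the 40 other genes tested, in BAT (orange) and gWAT (blue), by group of function, with filled points for an adjusted p under 0.05. Most orange points lie below 0, and the blue points spread to both sides, from Ces1f at -2.60 to Cidea at 3.41.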

How the data were processed

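Total RNA was labelled with Cy3 and hybridized to Agilent mouse gene expression arrays in 1 color. The authors deposited scanner files from Agilent Feature Extraction 10.7.1.1, in which each spot has an intensity. They also deposited a table of intensities normalized in GeneSpring, which are not on the log2 scale. Irregular spots were left out, each intensity (gProcessedSignal) was scaled to the 75th percentile of the array, and log2 was taken. Genes were named through RefSeq accessions (32994 of 35886 such probes matched, GRCm38.p6), and the brightest probe stood for a gene. Genes entered a test if 1 group or more had the probe above background, by the scanner software's call, on each of its 4 arrays. Comparisons used limma 3.58.1 in R 4.3.3 (lmFit and eBayes) with Benjamini-Hochberg adjustment over all genes tested and a threshold of 0.05, after a check on simulated data. Groups were taken from the labels. The precision is limited by the 4 arrays per group.

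The 10 genes, the other genes of the pathway and the markers were chosen with earlier results of these data known. All 10 genes are named, and so are, of each group of other genes, those with the largest changes past the threshold, plus Cidea, Fabp4, Adrb3 and Pparg. The other genes of groups with 5 or fewer calls, and Ppara in gWAT, were named after their values were seen. Alternatives were quantile normalization, median centring, spike-in scaling, scaling by Actb and Rplp0, normexp background correction (offset 50, on median signals) and the log2 of the deposited normalized intensities. Further alternatives were other filters and probes, robust eBayes, the methods' t-test, blocks for slide, scan day and replicate number, and leaving out each array. Replicate numbers are shared between groups, but arrays with the same number did not all deviate together. Their correlations were 0.0087 to 0.19 between genotypes in BAT, -0.16 to 0.55 in gWAT (0.55 for replicate 2), -0.03 to 0.18 between tissues of controls and -0.12 to 0.25 between tissues of the KO groups, so the numbers were not used as pairs. The genes most like Plin1 in pattern are not reported here.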

Additional observations from a re-analysis of the deposited data

Results flagged for a closer look

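The change with the genotype label differed between the tissues for all 10 genes (limma, interaction over 16 arrays, gWAT change minus BAT change). It also differed for 48.3% of the 14820 genes tested, 27.4% with the more positive change in gWAT. Among the 10 genes, the difference was 0.87 for Pnpla2, 1.21 for Lipe, 1.91 for Mgll, 1.08 for Abhd5, 2.27 for G0s2, 1.40 for Plin1, 2.04 for Plin2, 0.62 for Plin4, 3.37 for Plin5 and 2.24 for Cidec on the log2 scale.

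In 6 of 40 sets of 4 arrays, 1 array lay far from the other 3 by Dixon's criterion, which chance meets in about 1 of 20 sets. Replicate 4 of BAT KO, from a 14-week-old mouse, was high for Abhd5 (3.23) and Cidec (7.60), and replicate 4 of the gWAT arrays labelled KO, also at 14 weeks, was low for Mgll (7.19). Control replicate 1 was low for G0s2 in BAT (4.52) and for Plin2 in gWAT (5.18), and control replicate 4 was high for Plin5 in BAT (7.68).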

How the results depend on the processing

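In BAT, 9 or 10 of the 10 genes and 25 to 35 of the other genes passed under every alternative, and no gene changed direction in 250 pairs of gene and alternative. Of all genes tested in BAT, 60.1% passed under quantile normalization, 63.6% under spike-in scaling and 75.8% with Actb and Rplp0. In gWAT, 24 of 240 pairs of gene and alternative changed direction, all of genes that did not pass. Of the 10 genes, 4 passed in gWAT under quantile normalization with and without normexp, 5 under spike-in scaling, and 1 with the slide or the scan day as a fixed block. Of the other genes, 20 passed in gWAT under quantile normalization, 22 with normexp as well, 7 under median centring, 6 with no filter, 7 by the methods' t-test, and 2 with slide or scan day as a block. Leaving out 1 array gave 6 to 13 of the other genes, and 8.08% to 22.9% of all genes tested in gWAT. That share was 22.7% under quantile normalization, 23.1% with normexp as well, 35.9% under spike-in scaling and 9.78% under median centring. It was 4.97% with no filter and 11.4% by the methods' t-test. For the difference between tissues, 4 of the 10 genes passed with the slide as a block and 5 with the scan day, and 9 to 10 when 1 array was left out.

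Reversed changes in gWAT were, under quantile normalization, Mgll (-0.059) and Abhd5 (-0.076), with normexp as well -0.00082 and -0.14. They were Lipe (0.091) and G0s2 (0.0068) under median centring, Pnpla2 (0.27), Lipe (0.41), G0s2 (0.33) and Cidec (0.28) under spike-in scaling, and Abhd5 (-0.019) with Actb and Rplp0. Normexp with the 75th percentile gave Lipe 0.044 and Abhd5 -0.0089, and the slide or scan day as a block gave Abhd5 -0.46 and G0s2 0.17. Leaving out 1 array gave -0.10 to 0.24 for Abhd5, -0.16 to 0.14 for Lipe and -0.24 to 0.0060 for G0s2. Between control tissues, quantile normalization gave Pnpla2 -0.21, Mgll -0.55 and Plin1 -0.62, and with normexp -0.21, -0.52 and -0.55. Plin1 was -0.091 under spike-in scaling, Cidec 0.29 with Actb and Rplp0 and 0.073 with the scan day as a block, Mgll -0.12 with the slide as a block, and Cidec -0.16 to 0.073 when 1 array was left out. The cause was not tested.

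With the replicate number as a block, 8 of the other genes passed in gWAT, and over all genes tested 1087 in place of 2525. That total was 1384 under median centring, 5086 under spike-in scaling, 1138 with no filter, 1618 by the methods' t-test and 184 with slide or scan day as a block. It was 1188 without control replicate 2, 1582 without control replicate 3, and 1168, 1285 and 1143 without KO-labelled replicates 1, 2 and 3. For the difference between tissues, 3265 genes passed with the slide as a block and 4560 with the scan day, in place of 7162. Scan day could not be fitted in BAT. Among genes called in BAT, 44.8% were higher, 79.7% under spike-in scaling and 17.7% with Actb and Rplp0. In gWAT these shares were 56.0%, 95.3% under spike-in scaling and 71.0% under median centring. In BAT and in gWAT, genotype changes with a slide block rest on 1 control array per tissue, and so does the difference between the tissues. The remaining 3 controls of each tissue lay on a slide without KO arrays of that tissue.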
